A study of Homo sapiens with 5 samples.

Results

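The regions described here are the places on chromosomes 1 to 22 where every one of 4 SMAD2 ChIP-seq libraries had one of its 1000 highest-scoring summits. A summit is the single base at which a peak of immunoprecipitated DNA is highest, and its score is the authors' peak caller's own value, read here from its range as a −log10 q. The 1000 highest summits of each list were pooled and chained into regions wherever neighbours lay at most 200 bp apart. This gave 1537 regions, of which 589 held a kept summit of all 4 libraries and are called members below. They make up 38.3% of these regions (exact 95% interval 35.9 to 40.8, which covers counting error only), and 589 of the 112897 regions formed by the full lists. The members were thus chosen by their ranks and by their co-location, and neither is a finding.

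SMAD2 is an intracellular mediator of activin and TGF-β signalling. Activated receptors phosphorylate it, and it then joins SMAD4, enters the nucleus and acts at regulatory DNA together with partner transcription factors. Its main splice form binds DNA weakly by itself, so partner factors largely direct where it is found.

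All libraries came from T47D, an established human breast cancer line of the luminal, estrogen receptor-positive type, and chromatin was recovered with an anti-SMAD2 antibody. Activin A was given in every library, at 50 ng/ml for 1.5 h. In 2 libraries activin was given alone. In the other 2 libraries palbociclib, an inhibitor of CDK4 and CDK6, was also given at 1 µM for 24 h. The study compared SMAD2 positions between these treatments, and no immunoprecipitated library without activin was analysed. The cell type cannot be checked against markers, because summit lists hold no expression. The labels do not say whether replicates were separate cultures, so their spread may be technical. The deposited lists hold 50440 and 53069 summits on chromosomes 1 to 22 with activin, and 61533 and 63761 with palbociclib and activin. The kept 1000 summits are therefore between 1.57% and 1.98% of a list. Read depth is unknown, and the number of summits and the scores both vary with it.

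Since a member needs a rank within 1000 in every list, summits near that limit drop out by the rule itself, and the following counts are a description of it. Among the first 100 summits of each list, 96 and 97 of the activin libraries and 95 and 94 of the palbociclib libraries lay in members. Among ranks 901 to 1000, the numbers were 29 and 23, and then 17 and 18. In the first 3 bands the activin lists went from 96 to 75 and from 97 to 85, while the palbociclib lists stayed at 95 to 96 and 93 to 94. In the band from 501 to 600, 44 to 58 summits of 100 lay in members. Within members the median rank was 349 and 329 with activin, and 310 and 319 with palbociclib. Each member held exactly 1 kept summit of every library. With activin, the lowest scores of members were 147 and 154. With palbociclib they were 229 and 206.

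**Figure D1:**
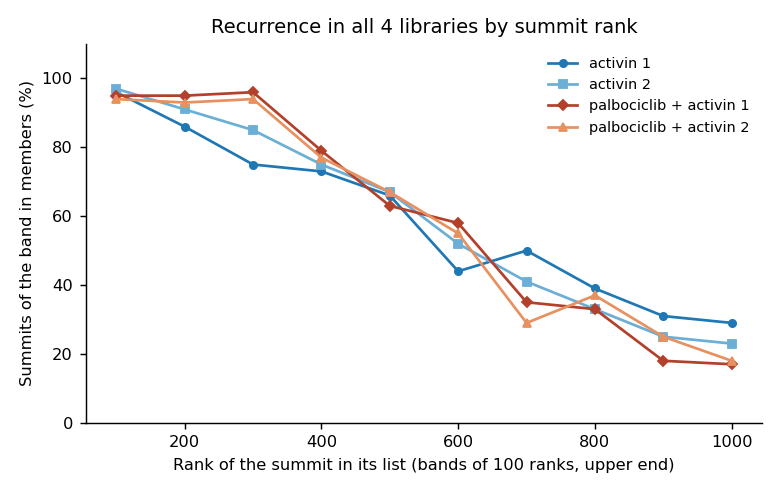
Percentage of summits that lie in the 589 members (y) in bands of 100 ranks (x, upper end of the band), with 1 line for each library. All 4 lines start between 94% and 97% and end between 17% and 29%.

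Regions that just missed the rule mostly had the missing summit at a lower rank. A further 218 regions held kept summits of 3 libraries. Activin replicate 1 was the missing library in 74 of them, activin replicate 2 in 52, palbociclib replicate 1 in 32 and palbociclib replicate 2 in 60. In 206 of the 218 the missing library had a summit within 200 bp below rank 1000, and in 195 that summit ranked within the first 2000. In the other 12 it listed no summit at that place, which does not show that SMAD2 was absent there. Another 260 regions held summits of 2 libraries and 470 of a single one. By pairs, the first 1000 summits shared 752 regions between the activin lists and 778 between the palbociclib lists. Pairs across treatments shared 712 to 759, so the activin pair lay inside that range and the palbociclib pair above it.

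The rank limit itself fell in a smooth range of scores. Just inside lay a region on chromosome 17 at 60005315 to 60005340 (ranks 828 and 1000 with activin, 904 and 551 with palbociclib). Next to it came chromosome 16 at 29937651 to 29937681 (922, 791, 998 and 736 in the same order) and chromosome 14 at 59951058 to 59951198 (998, 568, 357 and 525). The worst rank was 998 on chromosome 1 at 182360843 to 182360896, and 997 for the region at 73851800 to 73851817 of chromosome 17. Just outside lay chromosome 3 at 182817220 to 182817228, which ranked 880 and 885 with activin and 1003 and 925 with palbociclib. It was followed by chromosome 17 at 43025303 and chromosome 14 at 39644473, with worst ranks of 1003 and 1004. Chromosome 12 at 123011426 and chromosome 6 at 7389923 had worst ranks of 1006 and 1007. The member with worst rank 1000 was held back by its activin replicate 2 score of 154, and the last of the outside regions by its activin replicate 1 score of 146. Its other 3 ranks were 442 to 456, so a region outside the limit could be well inside it in 3 libraries.

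Members were unevenly spread over the chromosome arms. Arms were divided at the longest stretch of a chromosome without any summit in the 4 full lists, and chromosomes 13, 14, 15 and 22 were counted as 1 long arm each. The long arm of chromosome 17 held 62 members (10.5%), although only 5.31% of all listed summits lay there. The long arm of chromosome 11 held 53 members (9.0%, against 4.37% of summits). On 12q there were 43 members (7.30% against 4.55%), on 1q 42 (7.13% against 4.75%) and on 3q 37 (6.28% against 3.57%). The short arm of chromosome 7 held 27 members (4.58% against 2.15%), 3 times as many as 7q with 9. These 6 arms together held 264 members, or 44.8%, and 24.7% of all summits (mean over the lists).

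Chromosome 19 stood at the other end. It held 6 members (1.02%), although 5.89% of all summits lay there. Only 15 and 18 of its 2860 and 3224 activin summits were among the first 1000, and 14 and 20 of its 3589 and 3812 palbociclib summits. The long arm of chromosome 4 held 2 members and 2.47% of summits, and the long arm of chromosome 2 held 4 members and 3.50% of summits. Chromosome 13 held 3 members and 1.81%. The 21p stretch held no member. Chromosome 19 thus had many listed summits and few strong ones in each of the 4 libraries.

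The same arms were high or low in each list. The share of the first 1000 summits on an arm was divided by the arm's share of the whole list, which gives 1 value for each library. On 11q this ratio was 1.83 ± 0.05 (SD, n = 4 libraries), on 3q 1.83 ± 0.06, on 7p 1.81 ± 0.18 and on 17q 1.77 ± 0.08. On 12q it was 1.60 ± 0.09 and on 1q 1.51 ± 0.06. The whole of chromosome 19 gave 0.284 ± 0.041, 4q gave 0.202 ± 0.087 and 22q gave 0.376 ± 0.023. Of 40 arms, 11 lay above 1 in all 4 libraries, 22 lay below 1 in all 4, and 7 lay on both sides. The 11 arms held 67.4% of members and 42.9% of all summits. All arms but these 7 thus lay on the same side of 1 in every library of both treatments. The ratios of 11q, 3q, 7p and 17q overlapped between libraries, and the highest 1q ratio, 1.56, was below the lowest of any of these 4 arms.

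**Figure D2:**
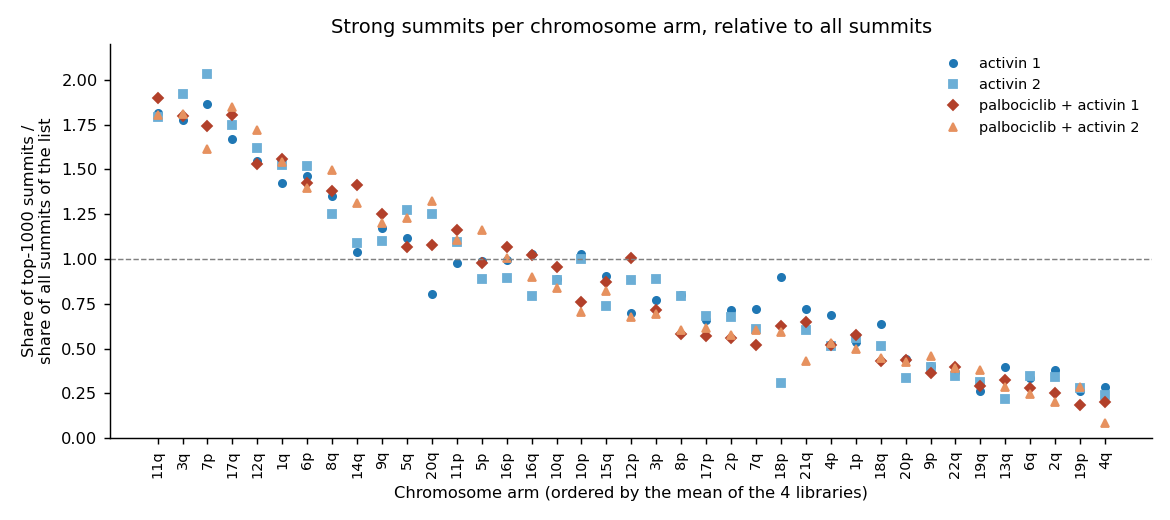
Share of the first 1000 summits on an arm divided by the arm's share of all summits of the list (y), for each chromosome arm with over 5 Mb of span (x), with 1 point for each library and a dashed line at 1. Arms 11q, 3q, 7p and 17q lie between 1.61 and 2.03 in every library, and 19p lies between 0.183 and 0.284.

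The arm pattern was also described in the regions that followed the members and with other numbers of summits kept. The 589 regions of all 4 full lists that followed the members in worst rank had 44 on 17q, 35 on 11q, 48 on 12q, 55 on 1q and 38 on 3q. They had 19 on 7p and 12 on chromosome 19. Of these next regions, 64.5% lay on the 11 high arms. Of all 22311 regions of the 4 full lists outside the members, 41.8% did. The next regions can hold summits within the first 1000 of some lists, and the 11 arms were chosen from those summits. Their share is thus not independent of the choice of arms. When members were rebuilt from the first 500 summits, 17q held 2.29 times its list share, 11q 2.05 times, and with the first 5000 summits these values were 1.21 and 1.40. On 7p the value fell from 2.17 to 1.15. The arms 19p and 19q stayed at or below 0.504 times their list share from 500 to 5000 summits. The short arm of chromosome 1 went from 1.15 times at 500 summits to 0.717 times at 1000, so its side depends on the number kept. The first 500 and the first 5000 summits overlap the first 1000 by construction, so these values are a description too. Gene content and copy number of the arms were not analysed here.

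Of all members, 427 lay on long arms (72.5%, exact 95% interval 68.7 to 76.1). On the 18 chromosomes with both arms the value was 373 of 535 (69.7%), against 64.3% of the regions outside the members. The next 589 regions had 72.8% there and 75.4% over all chromosomes, both above the members. Within 2 Mb of the summit-free stretch lay 10 members (1.70%), and 34 (5.77%) lay within 2 Mb of the first or last summit of a chromosome. For the regions outside the members these percentages were 2.02 and 6.97. Members were therefore not gathered at chromosome ends or beside the centre.

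A few stretches held many members. Of 567 windows of 5 Mb with a summit, 324 held no member, and 11 windows with at least 8 members held 102 of the 589. Chromosome 11 from 60 to 65 Mb held 14 members, the most of any window. Chromosome 12 from 50 to 55 Mb, chromosome 17 from 70 to 75 Mb and chromosome 6 from 25 to 30 Mb held 10 each. The chromosome 6 window held 187 and 189 summits of the activin lists and 242 and 235 of the palbociclib lists. The chromosome 11 window held 381 and 403, and then 442 and 467. Chromosome 1 from 145 to 150 Mb held 8 members and a mean of 123 summits per list, fewer than any other of the 11 windows. The windows were chosen after the members' positions were seen.

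That window of chromosome 1 held 5 of the first 25 members by worst rank. A pair of neighbours in it lay 70811 bp apart, at 147735919 to 147735935 and at 147806746 to 147806770. The former ranked 10 and 28 with activin and 17 and 8 with palbociclib. The latter ranked 26, 22, 23 and 24 in that order. Neither had another summit within 5 kb in any of the 4 lists. Another, at 148241620 to 148241642, ranked 16 and 23, and then 26 and 19. Just before the window, the member at 144534158 to 144534194 ranked 27 and 16 with activin and 32 and 32 with palbociclib. By arm, 9 of the 63 members that ranked within 100 in every list lay on 1q, 9 on 17q, 7 on 1p and 7 on 3q. The short arm of chromosome 1 thus held 11.1% of the strongest members and 3.57% of all members.

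Members lay near each other more often than the next regions did. The median distance from a member to the nearest other member was 470 kb (quartiles 94.8 and 1538 kb). For the next 589 regions it was 659 kb (198 and 2209 kb). Within 20 kb of another member lay 55 members (9.34%), and within 100 kb 152 (25.8%). For the next regions these numbers were 18 (3.06%) and 95 (16.1%). Members of the next 1000 ranks, found by the same rule, numbered only 114 and are too few to compare in spacing. At the other extreme, 59 members were over 5 Mb from any other member, and the most remote was 66.3 Mb away.

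**Figure D3:**
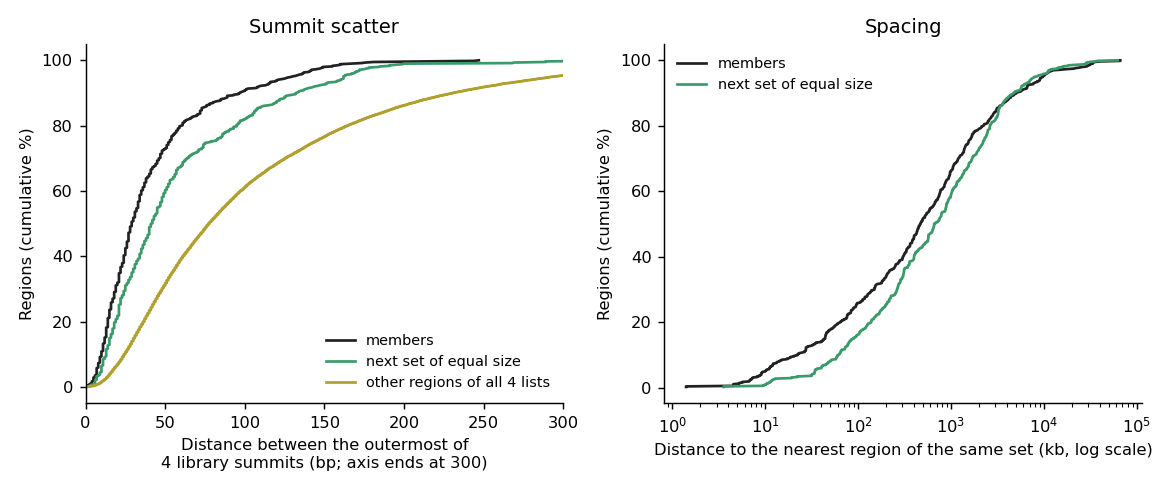
Left, distance in bp between the outermost of the 4 library summits of a region (x) against the cumulative percentage of regions (y), for the 589 members, the next 589 regions and the 22311 other regions of all 4 lists. Right, distance in kb on a log scale to the nearest region of the same set. Both member curves start to the left of the next set, with medians of 29 and 42 bp on the left and 470 and 659 kb on the right.

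No members were closer than 1.41 kb. That pair lay on the short arm of chromosome 1, at 11968388 to 11968430 and 11969835 to 11969879. The former ranked 13 and 11 with activin and 19 and 14 with palbociclib, and the latter 24, 21, 31 and 33. The next closest pair lay 4.53 kb apart on 11q at 62554875 and 62559436. It was followed by 179846884 and 179851443 on 1q (4.54 kb), 75007059 and 75012383 on 10q (5.23 kb) and 28969537 and 28975236 on 1p (5.67 kb). Partners could differ much in strength. In the last pair the first region ranked 916 and 877 with activin and 678 and 678 with palbociclib, and its partner ranked 22 and 26, and then 24 and 15.

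Chaining members at distances of at most 100 kb gave 63 groups of 2 or more, of which 47 were pairs, 8 held 3 members and 8 held 4 or more. The largest held 6 members over 93.6 kb on 11q, from 62554875 to 62648446. Its strongest region, at 62609004 to 62609067, scored 1046 and 973 with activin and 1261 and 999 with palbociclib. Its others had worst ranks of 110, 137, 251, 371 and 607, and inside this stretch the full lists held 19 and 17 summits with activin and 27 and 27 with palbociclib. Groups of 4 lay on 1p from 28832526 to 28975306 and from 45187382 to 45285597, on 3q from 194304803 to 194451167 and on 6p from 26027473 to 26104256. Further groups of 4 lay on 12q from 53298809 to 53448153 and from 56435943 to 56615888, and on 17q from 41393338 to 41476390. The 17q group held the first-placed member, and its weakest was in place 86.

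Of the 63 members within rank 100 in every list, 26 (41.3%) had another member within 100 kb. Of the 128 with a worst rank above 800, 28 (21.9%) did. The mean number of other summits of the same list within 5 kb, averaged over the 4 lists, had a median of 1.00 in the 63 strongest. In the 5 weaker classes, in order of worst rank, the medians were 2.00, 2.25, 1.75, 1.50 and 1.50. Over all members the number of neighbours and the worst rank had a Spearman coefficient of −0.0439, so the number did not rise or fall steadily with rank.

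Weaker summits surrounded the members. Within 5 kb of a member summit, the lists held 1.93 and 1.97 other summits with activin, and 2.05 and 2.28 with palbociclib (means over 589 members). The next 589 regions had 1.46 and 1.68, and then 1.79 and 2.01. The regions outside the members had 1.44 and 1.50, and then 1.64 and 1.80, so in each library the members had the most. No list had a second summit within 250 bp of a member. Between 250 and 500 bp the density of other summits was 0.0611 per kb around members and 0.209 per kb around the regions outside them (means of 4 libraries). From 500 to 1000 bp it was 0.312 and 0.317 per kb, and from 5 to 10 kb it was 0.162 and 0.0924 per kb. Between 200 and 500 kb it was 0.0467 and 0.0400 per kb. Members thus had fewer summits than the regions outside them within 500 bp, and more in each distance class from 1 kb to 500 kb. The difference was about the same from 1 to 10 kb and smaller beyond. Around the next 589 regions the density from 250 to 500 bp was 0.0900 per kb. By library it was 0.0747 to 0.102 there and 0.0374 to 0.0883 around members, so the ranges overlapped. From 5 to 10 kb the next regions had 0.116 per kb. Both comparison sets were chained from the full lists, and members from the kept summits.

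**Figure D4:**
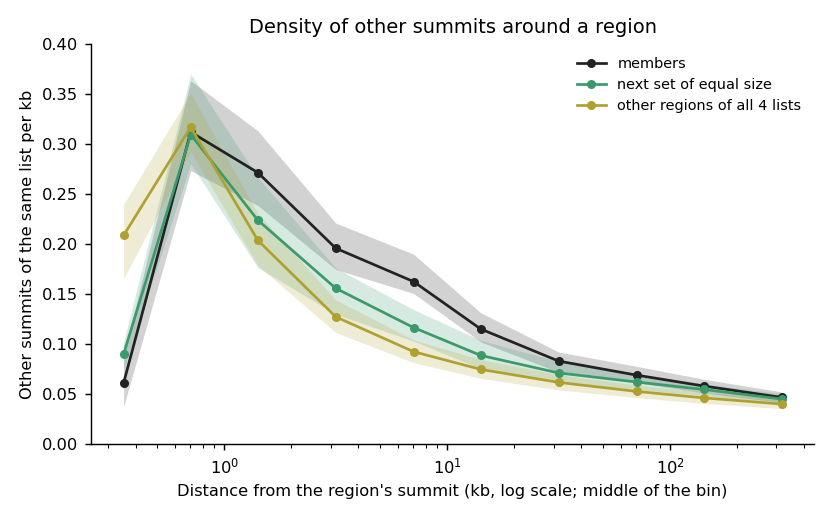
Other summits of the same list per kb (y) against the distance from a region's own summit in kb on a log scale (x), for members, the next 589 regions and the other regions of all 4 lists. Lines are means of the 4 libraries and bands run from the lowest to the highest library. Around members the density falls from 0.312 per kb between 500 and 1000 bp to 0.0467 per kb between 200 and 500 kb.

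The lists were longer with palbociclib, so list length and treatment cannot be told apart in the number of neighbours. The mean number was 1.95 ± 0.03 with activin and 2.17 ± 0.16 with palbociclib (SD, n = 2 each), and both palbociclib values were the higher. The difference of 0.216 gave p = 0.333 in the exact two-sided permutation test, the smallest that 2 against 2 libraries allow. With each list cut to its 50440 highest summits, the direction turned: 1.93 and 1.85 with activin against 1.57 and 1.72 with palbociclib, a difference of −0.250. By library, 166 and 162 members had no other summit within 5 kb with activin and 133 and 134 with palbociclib, and 55 members (9.34%) had none in any list.

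The most crowded member lay on 12q at 53448121 to 53448153, with 8 and 12 other summits within 5 kb under activin, against 6 and 8 under palbociclib. On 5q the member at 180670849 to 180670880 had 6 and 8, and then 9 and 10. On 11q the member at 69455972 to 69455976 had 10 and 8, and then 5 and 8. The other two were on 12q at 57914248 (8, 6, 8 and 9) and on 22q at 39640905 (7, 6, 10 and 8). Their worst ranks ran from 548 to 933, so none was among the strongest. Members with no other summit included a pair on 1p at 17222753 and 17231834, 9067 bp apart, and 3 of the group of 4 on 1p at 45187382, 45196720 and 45285508. All 55 such members tied, and those named came first by chromosome and position, so their shared arm has no meaning here.

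The 4 libraries placed the summit of a member close together. The outermost summits of the 4 lists lay a median of 29 bp apart (quartiles 16 and 53 bp). For the next 589 regions the median was 42 bp, and for the regions outside the members it was 77 bp. In 64 members (10.9%) the 4 summits fell within 10 bp, and in 54 (9.17%) they spread over more than 100 bp. For the regions outside the members these percentages were 1.68 and 38.7. The rule itself needed the kept summits of a member to chain at gaps of at most 200 bp. Both comparison sets were chained from the full lists, where weaker summits can lengthen a region. The difference in scatter is thus a description, and the part set by the rule was not separated. By rank class, the median scatter of members was 28 bp for worst ranks up to 100, 17 bp above 100 and up to 200, and 33 bp above 800. Scatter over 100 bp was met in 1 of 63 of the strongest and in 18 of 128 of the weakest of these classes.

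In a single member all 4 libraries named the same base, position 49058909 on chromosome 3. It ranked 370 and 180 with activin and 144 and 255 with palbociclib. On 20q the summits fell on 47895211 in 3 lists and on 47895212 in palbociclib replicate 2. On 11p they lay at 10830441 to 10830443, on 11q at 94579019 to 94579021 and on 2q at 217560236 to 217560239. Such agreement was not confined to the strongest members, since these 5 had worst ranks of 76 to 979. The widest member, on 9q, had its summits at 134001013 and 134000878 with activin and at 134000881 and 134000766 with palbociclib, or 247 bp from end to end. On 3q the summits lay at 156878136 and 156878082, and then at 156877892 and 156877989. Other wide members lay on 3q at 184081037 to 184081252, on 11p at 34126912 to 34127093 and on 20q at 44044637 to 44044813.

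No shift of summit positions with treatment was detected in 2 against 2 libraries. The exact permutation tests cannot go below p = 0.333 in this design, so they could not have detected one. The median distance between 2 libraries was 14 bp for the activin pair and 15 bp for the palbociclib pair, and 11 to 16 bp across treatments. The mean distances were 25.4 and 23.4 bp within treatments and 20.7 to 25.5 bp across them. The difference of −1.87 bp, across minus within, gave p = 0.667 in the exact permutation test over the 4 libraries. Without activin replicate 1 it was 0.617 bp, so its sign rests on that library. The signed offset from the mean of the 4 summits averaged 0.134 and −1.44 bp with activin, and −0.815 and 2.12 bp with palbociclib, over the 589 members. The shift of 1.30 bp between treatments (exact permutation p = 0.667) was of the size of the spread within them, and was −0.205 bp without palbociclib replicate 2. Activin replicate 2 was the library farthest from the median of the other 3 in 172 members, against 133 to 143 for the others.

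In 148 members (25.1%) both summits of a treatment lay on the same side of both summits of the other, with palbociclib at the lower coordinate in 73 and activin in 75. The background was 31.1% of the 22900 regions of all 4 full lists, with 15.4% and 15.8% in the 2 directions, so the members' share was below it. Of the next 589 regions, 175 (29.7%) were so divided. The space between the treatments had a median of 6.50 bp, reached 20 bp in 27 members and 50 bp in 6. It was widest on 6p, where the activin summits lay at 26216885 and 26216893 and the palbociclib summits at 26217019 and 26217012, with 119 bp between them. On 11p they lay at 27528286 and 27528283, and then at 27528438 and 27528391. On 17q the member in place 16 had activin summits at 56709030 and 56709023 and palbociclib summits at 56709124 and 56709112, 82 bp apart. Among the 54 members with a scatter over 100 bp, 16 were divided by treatment. No share is given for regions of such scatter outside the members, so nothing is read from this count. The 6p and 11p members were chosen for this gap after the positions were seen.

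Both palbociclib ranks were ahead of both activin ranks in 156 members (26.5%), where the background over the 22900 regions was 21.8%. Both activin ranks were ahead in 118 (20.03%), with a background of 18.5%. In either direction this makes 274 members (46.5%) against 40.3%. The rule used these ranks, so the shares are a description and nothing is read from them. In 282 members (47.9%) the worst of the 4 ranks was at most 2 times the best. Rank order over members correlated at a Spearman coefficient of 0.789 between the activin lists and 0.815 between the palbociclib lists, and at 0.662 to 0.710 across treatments. These coefficients are over 589 regions cut at the same rank, which are not independent.

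**Figure D5:**
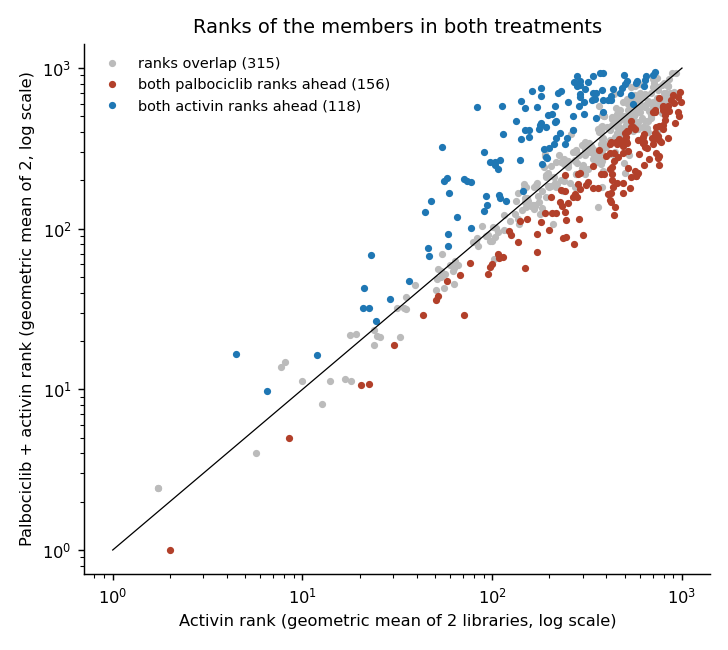
Geometric mean rank of each of the 589 members in the 2 activin libraries (x) and in the 2 palbociclib libraries (y), both on log scales, with the line of equal rank. Colours mark the 156 members with both palbociclib ranks ahead, the 118 with both activin ranks ahead and the 315 whose ranks overlap.

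The widest moves were of members that stood high with activin and further down the list with palbociclib. On the short arm of chromosome 2 the member at 24299281 to 24299356 ranked 95 and 73 with activin and 828 and 396 with palbociclib. Its scores were 334 and 382, and then 244 and 283. The member on 17q at 39114523 to 39114536 ranked 46 and 64 with activin and 353 and 295 with palbociclib. On 11q the member at 111180339 to 111180350 ranked 77 and 164, and then 521 and 647. On 19p, the member at 5309095 to 5309236 ranked 118 and 221, and then 708 and 737. On 5q, the member at 168019109 to 168019134 ranked 160 and 127, and then 501 and 784. In these 5 members the ranks of the treatments lay far apart, and 2 of the 5, on 19p and 5q, had no other summit within 5 kb in any list.

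In the opposite direction the widest move was on 21q at 41757952 to 41758005, ranked 307 and 621 with activin and 147 and 101 with palbociclib. On 6q the member at 139695709 to 139695744 ranked 300 and 241, and then 93 and 69. On 12q, the member at 46766481 to 46766528 ranked 195 and 464, and then 124 and 67. On 17q, the member at 62502349 to 62502377 ranked 565 and 346, and then 122 and 151. On 6p, the member at 21594001 to 21594033 ranked 706 and 817, and then 205 and 307. The mean log2 rank differed by over 1 between treatments in 106 members, of which 59 were ahead with activin and 47 with palbociclib. No share over the 22900 regions is given for this count, and the rule used these ranks, so nothing is read from it.

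On 6p, 7 of 27 members had both palbociclib ranks ahead and 7 both activin ranks. Over the 22900 regions of all 4 full lists the shares were 21.8% and 18.5%. From 25 to 30 Mb, 6 of 10 members had both activin ranks ahead and 0 both palbociclib ranks. These were the members at 26027473, 26045634, 26056661, 26216885, 27114911 and 28891702. The member at 27114911 ranked 410 and 356 with activin and 949 and 926 with palbociclib. From 30 to 35 Mb, 5 of 8 members had both palbociclib ranks ahead and 0 both activin ranks, among them 30712294, which ranked 127 and 78 with activin and 59 and 62 with palbociclib. The rule used these ranks, neighbouring members are not independent, the windows were chosen after their values were seen, and the difference between them was not tested.

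Other members in places 16 to 25 included some with similar ranks in all lists. On 17q the region at 41393338 to 41393395 ranked 25 and 24 with activin and 27 and 26 with palbociclib, with scores of 607 and 597, and then 817 and 708. On 15q, a region from 65588469 to 65588495 had ranks of 21 and 15, and then of 28 and 17. On 17p, the region at 8076699 to 8076786 ranked 19 and 32, and then 21 and 22. The ranks of the 2 treatments overlapped in the latter 2 and stood apart, by a single place, in the first. Others near the top moved more: the member in place 15, on 1p at 45187382, ranked 4 and 5 with activin and 25 and 11 with palbociclib. The member in place 16, on 17q at 56709023, ranked 20 and 25, and then 9 and 13.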

How the data were processed

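SMAD2 ChIP-seq summits of T47D cells were analysed for 4 libraries, 2 with activin and 2 with palbociclib and activin. The input library is named as input in its title and has no file used here. The tools named, per the submitters' processing notes, are MACS2 2.0.9, Bowtie 1.1.0 and Picard, with the hg19 build, and how duplicates were handled is not given there. The deposited lists give 1 position and 1 score per summit for each library, called without pooling. The authors' peak caller wrote the deposited score, whose scale no label states. It was read as the −log10 q of the authors' deposited calls, because its lowest value was 1.31 and the −log10 of 0.05 lies just below. Positions are 1-based on hg19.

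Summits on chromosomes 1 to 22 were ranked by score within each list, with ties broken by position, and the highest 1000 were chained at gaps of at most 200 bp. A library's position in a region is that of its highest-ranked summit. The full lists were chained likewise for comparison. An arm boundary needed a summit-free stretch of at least 3 Mb. Regions are not replicates, so tests are exact two-sided permutation tests over the 4 libraries, which cannot go below p = 0.333. Intervals are exact Clopper-Pearson intervals at 95%. Members, lists and comparisons were chosen with earlier results of these data known, and the set of the next 589 regions was added after seeing the data.

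Regions were named by rule: places 16 to 25 by worst rank, 5 regions on each side of the rank limit, the 5 narrowest and 5 widest, the 5 closest pairs, groups of at least 4 members within 100 kb, the 5 most and 5 least crowded, and the 5 widest rank moves each way. Ties were taken in order of chromosome and position. Others named were chosen after their values were seen. No annotation or sequence of hg19 was used, so no gene names are given. The code was tested on simulated data. Python 3.11.15, numpy 2.4.6, pandas 2.3.3, scipy 1.17.1 and matplotlib 3.10.9 were used.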

Additional observations from a re-analysis of the deposited data

Results flagged for a closer look

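Chromosome X lay outside the rule, and no share of listed summits is given for it here. When it was ranked together with chromosomes 1 to 22, it held 4 regions with a top-1000 summit of all 4 libraries, of 11 X regions with such a summit of any library, and 586 regions in all met the rule. No control library was analysed for comparison. The strongest lay at 41193435 to 41193443 and ranked 87 and 172 with activin and 117 and 57 with palbociclib. The others lay at 16789798 to 16789881 (127 and 215, then 76 and 194), at 12993260 to 12993282 (234 and 250, then 139 and 176) and at 16680683 to 16680716 (112 and 171, then 828 and 476).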

How the results depend on the processing

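The number kept set most counts. With 500, 2000 and 5000 summits kept, members numbered 279, 1191 and 3163, those within 100 kb of another made up 21.1%, 32.7% and 49.4%, and the median spacing was 786, 235 and 103 kb. Members with both palbociclib ranks ahead then numbered 70, 285 and 708, and with both activin ranks ahead 54, 236 and 613. These counts follow from how many summits enter. No share over all regions is given beside the counts of ranks ahead, so nothing is read from them. Members were 44.4% of regions at 5000 summits. Members within 20 kb and 500 kb of another were 9.34% and 51.6%. Without each library in turn, members need 3 libraries only: they numbered 621 to 663 and made up 43.5% to 47.5% of regions, with 251 to 309 on the palbociclib side and 175 to 212 on the activin side. The summit distance difference then ran from −3.36 to 0.617 bp (0.617 without activin replicate 1), the shift from −0.205 to 2.80 bp (−0.205 without palbociclib replicate 2) and the neighbour difference from 0.139 to 0.316. With lists of equal length the neighbour difference was −0.250. The cut to equal length removed more summits from the palbociclib lists than from the activin lists, and the reason for the change of sign was not tested. The share on long arms stayed inside its interval under all 11 alternatives, and gaps of 100, 500 and 1000 bp or adding chromosome X moved none of these results beyond its limit. Same-numbered libraries showed no shared deviation that held across measures (correlations −0.057 in log2 rank, −0.114 in position and 0.104 in neighbours). With 2 libraries per treatment, this cannot settle whether the numbers pair the samples. With the replicate block the distance difference was −0.711 bp, the shift 1.30 bp and the neighbour difference 0.216 (exact permutation p = 0.5), and with crossed numbers, added after seeing the data, the distance difference was −3.03 bp. Neither changed a call, and 0 tests could pass 0.05 in this design. Unknown read depth limits every rank and count.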
